A study of Mus musculus with 6 samples.

Results

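Adherens junctions hold neighbouring epithelial cells together. Cadherins bind their like on the next cell through calcium-dependent extracellular repeats, and their cytoplasmic tails carry the catenins, which connect the complex to actin. Nectins are immunoglobulin-like adhesion molecules that form contacts of their own beside the cadherins and reach actin through afadin. In stratified epithelia such as that of the esophagus, E-cadherin is found through the living layers, while P-cadherin is typical of the basal layer. The genes described here are 7 of the 24016 genes in the table, taken by symbol: Cdh1 and Cdh3 (E- and P-cadherin), Ctnna1 and Ctnnd1 (alpha-E-catenin and p120-catenin), Vcl (vinculin), and Pvrl1 and Pvrl4 (nectin-1 and nectin-4, now named Nectin1 and Nectin4). All 7 had a row and all 7 averaged 1 FPKM or more across the libraries, which was required for testing.

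The study sorted basal cells of the mouse esophageal epithelium into Krt15-positive (CD29high GFP+) and Krt15-negative (CD29high GFP-) cells, with 3 libraries each. Every mouse carried Krt15-CrePR1, in which the promoter of the basal keratin gene Krt15 drives a Cre recombinase that is active with RU486, and R26mTomato/mGFP, a reporter that turns from membrane Tomato to membrane GFP on recombination. Both groups received 1 mg of RU486 and were taken 24 hours later, so that GFP marks cells in which Cre had acted and a GFP-negative cell may still express Krt15. CD29 is integrin beta-1, encoded by Itgb1. The age, sex and number of the mice are not stated in the labels, nor whether replicate libraries came from different animals. P-values therefore reflect library-to-library spread, some of which may be technical.

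Values are FPKM, fragments normalised to transcript length and to the mapped total as the authors estimated them, so levels can be compared between genes per unit of length. Between 7072 and 9194 genes reached 1 FPKM in the Krt15-positive libraries, and between 3247 and 7934 in the Krt15-negative ones (8244 ± 1078 and 6029 ± 2464, SD, n = 3, exact 2-sided permutation p = 0.20, where 3 libraries against 3 cannot go below 0.10). The Krt15-negative replicate 1 library stood apart. It had 3247 such genes, and 42.4% of the genes tested were listed at 0 in it, against 6.16% to 20.5% in the other 5 libraries. The depth of Krt15-negative replicate 1 was an estimated 29 M fragments (M, mega), in a range of 27.6 to 41.6 M over the 6 libraries. Of 10 basal keratinocyte markers, 10 reached 1 FPKM in each of the other 5 libraries and 8 in that one. Krt15 itself had values of 3350, 9692 and 2420 FPKM in the Krt15-positive libraries, compared with 2350, 6784 and 3412 FPKM in the Krt15-negative ones, and Itgb1 had 23.4, 43.3 and 10.8 FPKM against 1.03, 20.7 and 16.7 FPKM. Summed fibroblast markers stood at 186, 222 and 78.4 FPKM in the Krt15-positive libraries, with 3, 4 and 3 of 15 at 1 FPKM or more, and at 194, 452 and 856 FPKM in the Krt15-negative ones, with 8, 11 and 14 of 15. Summed immune markers stood at 7316, 162 and 146 FPKM against 606, 1035 and 988 FPKM, with 2, 7 and 4 of 13 at 1 FPKM or more against 3, 9 and 7. The first of these sums was nearly all Lyz2, a myeloid lysozyme gene, at 7279 FPKM. Most of each fibroblast sum in the Krt15-positive libraries was Dcn, at 167, 176 and 71.1 FPKM against 13.9, 267 and 457 FPKM. Of the 12 fibroblast markers tested, 10 had a difference, Krt15-positive minus Krt15-negative, below 0, beside 2956 of the 9423 genes tested. For 6 of the 12 all Krt15-positive libraries lay below all Krt15-negative ones, beside 2.44% of all genes tested. Of the 10 immune markers tested, 8 had a difference below 0, and for 2 the groups lay apart in that way. Cd207, a marker of Langerhans cells, which also make E-cadherin, was listed at 0 in all 6 libraries. Summed suprabasal markers, genes of the layers above the basal one, stood at 11831, 28639 and 61922 FPKM in the Krt15-positive libraries, against 46305, 37841 and 20773 FPKM. Of these 12 markers, 11, 11 and 11 reached 1 FPKM against 10, 9 and 10. Much of the sums was Krtdap, at 7254, 13640 and 41287 FPKM against 33634, 22532 and 0 FPKM. That exact 0, in Krt15-negative replicate 3, can be a failed estimate. Summed basal markers were lower in each library, at 5727, 14138 and 3898.5 FPKM against 3960, 11138 and 5298 FPKM. The part of the suprabasal, fibroblast and immune signal in the results that follow was not tested. In bulk libraries, fewer cells of a type and less RNA per cell cannot be told apart.

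E-cadherin, the main cadherin of epithelial cells, was even among the Krt15-positive libraries and split among the Krt15-negative ones. Cdh1 stood at 22.3, 29.7 and 39.2 FPKM in Krt15-positive replicates 1 to 3 and at 47.5, 2.16 and 3.14 FPKM in Krt15-negative replicates 1 to 3. The groups overlapped, since the highest value of all 6 was that of Krt15-negative replicate 1, the library with the fewest genes detected, whereas the other 2 Krt15-negative libraries lay below all 3 Krt15-positive ones. Group means of Cdh1 were 30.4 ± 8.45 and 17.6 ± 25.9 FPKM (SD, n = 3 each). On the log2(FPKM + 1) scale the difference of Cdh1, Krt15-positive minus Krt15-negative, was 1.83 (SE 1.24, 95% CI -0.89 to 4.55, limma adjusted p = 0.79), which did not pass the threshold of 0.05. Without Krt15-negative replicate 1 the Cdh1 difference was 3.08 (SE 0.79, limma adjusted p = 0.88), and without both replicate 1 libraries 3.28 (limma adjusted p = 0.86), in a range of adjusted p from 0.38 to 0.98 over its alternatives. Leaving out Krt15-negative replicate 2 or 3 brought it to 1.11 or 1.31. The Cdh1 values of the 2 low libraries correspond to an estimated 397 and 551 fragments, against 2723 to 6112 in the other 4. The cause of the low values was not tested. The fragments carry no molecular identifiers, so their number may exceed that of the molecules behind them.

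P-cadherin, the cadherin of basal keratinocytes, was far less abundant. Cdh3 stood at 0.61, 7.81 and 2.34 FPKM in the Krt15-positive libraries, and at 3.71 and 0.39 FPKM in Krt15-negative replicates 2 and 3, while it was listed at 0 in Krt15-negative replicate 1. An exact 0 can be a failed estimate in such tables, so no mean is given. The Cdh3 groups overlapped, and the difference was 0.95 (SE 1.08, limma adjusted p = 0.82), with 0.31 without Krt15-positive replicate 2 and 0.50 without Krt15-negative replicate 1. In 5 of 6 libraries Cdh3 lay below Cdh1. Krt15-negative replicate 2 was the exception, with the lowest Cdh1 value of all.

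Alpha-E-catenin, the subunit that ties the cadherin complex to actin filaments, was the most abundant of the 7 by its median over libraries, 36.7 FPKM. Ctnna1 stood at 32.8, 53 and 40.6 FPKM in the Krt15-positive libraries, compared with 0.39, 50.9 and 29.6 FPKM in the Krt15-negative ones (42.1 ± 10.2 and 27 ± 25.3 FPKM, SD, n = 3 each). Of the 6 libraries, 5 lay within 29.6 to 53 FPKM, and Krt15-negative replicate 1, where Cdh1 was highest, held an estimated 42.4 fragments of Ctnna1, against 3377 to 7902 elsewhere. The Ctnna1 difference of 1.70 (SE 1.35, 95% CI -1.25 to 4.65, limma adjusted p = 0.79) was 0.09 without that library. Exons of Ctnna1 overlap those of Lrrtm2 on the opposite strand, a gene that did not exceed 0.11 FPKM in any library.

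p120-catenin binds the cadherin tail close to the membrane and keeps the cadherin from being internalised. Ctnnd1 stood at 4.85, 18 and 15.9 FPKM in the Krt15-positive libraries, compared with 7.47, 2.59 and 7.52 FPKM in the Krt15-negative ones (12.9 ± 7.05 and 5.86 ± 2.83 FPKM, SD, n = 3 each). Krt15-positive replicates 2 and 3 were above all Krt15-negative libraries, and Krt15-positive replicate 1 was within their range. The difference for Ctnnd1 was 0.95 (SE 1.12, limma adjusted p = 0.83), and it was 1.49 without Krt15-positive replicate 1 and 0.02 after quantile normalization. The annotation gives this gene 24 coding transcripts, and the table holds 1 value for all of them, so isoforms were not separated. Exons of Ctnnd1 are shared with the annotated gene Gm28635 on the same strand, which has no row under that symbol, and fragments of the 2 cannot be told apart.

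Vinculin, which binds alpha-catenin under tension and strengthens the link to actin, was the least abundant of the 7. Vcl stood at 1.00, 3.25 and 0.32 FPKM in the Krt15-positive libraries, compared with 0.0065, 0.11 and 2.07 FPKM in the Krt15-negative ones (1.52 ± 1.53 and 0.73 ± 1.16 FPKM, SD, n = 3 each). The groups overlapped. Krt15-negative replicate 1 held an estimated 0.99 fragments of Vcl, that is a single fragment, and Krt15-negative replicate 2 about 23.4, against 50.8 to 584 in the other 4. The Vcl difference was 0.57 (SE 0.89, 95% CI -1.39 to 2.53, limma adjusted p = 0.87). The sign of this estimate was reversed to -0.73 with quantile normalization, to -0.063 with library weights and to -0.11 without both replicate 2 libraries. Vinculin is also abundant in smooth and skeletal muscle. The 11 muscle markers summed to 21, 23.2 and 10.3 FPKM in the Krt15-positive libraries against 0.59, 17.3 and 15.2 FPKM in the Krt15-negative ones. Most of each sum above 1 FPKM came from Mylpf, a skeletal myosin light chain gene, at 20.7, 12.7 and 0 FPKM against 0, 16.7 and 7.98 FPKM, and from Acta2, smooth muscle actin, at 0.014, 9.94 and 9.79 FPKM against 0.047, 0.13 and 5.94 FPKM. Of the other markers, Myh11, Cnn1, Actg2 and Lmod1 were listed at 0 in all 6 libraries. The part of muscle RNA in the Vcl values was not tested. An exon of Vcl overlaps one of Ap3m1 on the opposite strand, and the library kit does not mark strand. Ap3m1 stood at 0.25, 18.9 and 13.1 FPKM against 0, 28.4 and 2.81 FPKM, and fragments from the shared stretch cannot be told apart.

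Vinculin is a known target of serum response factor, which binds the CArG box. The promoter windows of the 2 members that stood at a single fragment or at 0 in a library and have a RefSeq window are shown for their different make-up, from 250 bases before to 50 after the annotated start (GRCm38.p6, plus strand). Capitals mark the CArG box and the motif CCAAT, each searched on both strands with no overlap between them.
Vcl, chr14:20929148-20929447: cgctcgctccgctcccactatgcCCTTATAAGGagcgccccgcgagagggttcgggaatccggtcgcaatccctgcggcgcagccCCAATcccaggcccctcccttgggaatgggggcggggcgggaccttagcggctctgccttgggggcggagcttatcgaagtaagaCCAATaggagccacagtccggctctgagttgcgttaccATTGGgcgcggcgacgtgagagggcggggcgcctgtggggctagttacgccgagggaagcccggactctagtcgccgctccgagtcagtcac
Pvrl4, chr1:171369923-171370222: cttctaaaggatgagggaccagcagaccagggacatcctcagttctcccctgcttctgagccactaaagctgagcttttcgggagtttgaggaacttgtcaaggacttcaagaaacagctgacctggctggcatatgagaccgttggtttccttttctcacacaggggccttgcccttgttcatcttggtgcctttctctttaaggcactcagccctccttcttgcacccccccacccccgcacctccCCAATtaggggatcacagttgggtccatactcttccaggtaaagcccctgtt
The Vcl window held 1 CArG box, starting 227 bases before the start, a motif found in 1.63% of 32851 promoter windows of that length. The Pvrl4 window held none. CCAAT was present 3 times in the Vcl window, once in that of Pvrl4 and in 37.4% of all windows. Vcl had 30 CG pairs and 66.7% G and C, Pvrl4 3 and 53.3%, beside medians of 7 and 52.7% over all windows. Neither window held CACCTG on either strand, the motif of the Snail and Zeb repressors, which was present in 20.2% of windows. These matches describe the letters only. Windows were also at hand for Ctnnd1, whose 2 start sites held no CArG box and no CACCTG.

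Nectin-1, which binds other nectins across the cell contact, was low in every library. Pvrl1 stood at 3.56, 2.04 and 5.97 FPKM in the Krt15-positive libraries, compared with 0.074, 1.51 and 4.04 FPKM in the Krt15-negative ones (3.86 ± 1.98 and 1.88 ± 2.01 FPKM, SD, n = 3 each). Krt15-negative replicate 3 was above 2 of the 3 Krt15-positive libraries, so the groups overlapped. The Pvrl1 difference was 0.94 (SE 1.07, limma adjusted p = 0.82), 0.37 without Krt15-negative replicate 1, and -0.60 with quantile normalization.

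Nectin-4, which binds nectin-1 and is found in few adult tissues beyond epithelia, was the member with a difference below 0. Pvrl4 was listed at 0 in Krt15-positive replicate 1 and stood at 2.36 and 18.2 FPKM in replicates 2 and 3, against 4.11, 11.7 and 5.50 FPKM in the Krt15-negative libraries. The Krt15-positive libraries thus held both the lowest and the highest value. The difference for Pvrl4 was -0.90 (SE 1.30, 95% CI -3.75 to 1.94, limma adjusted p = 0.86), which became 0.10 when Krt15-positive replicate 1 was left out.

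**Figure D1:**
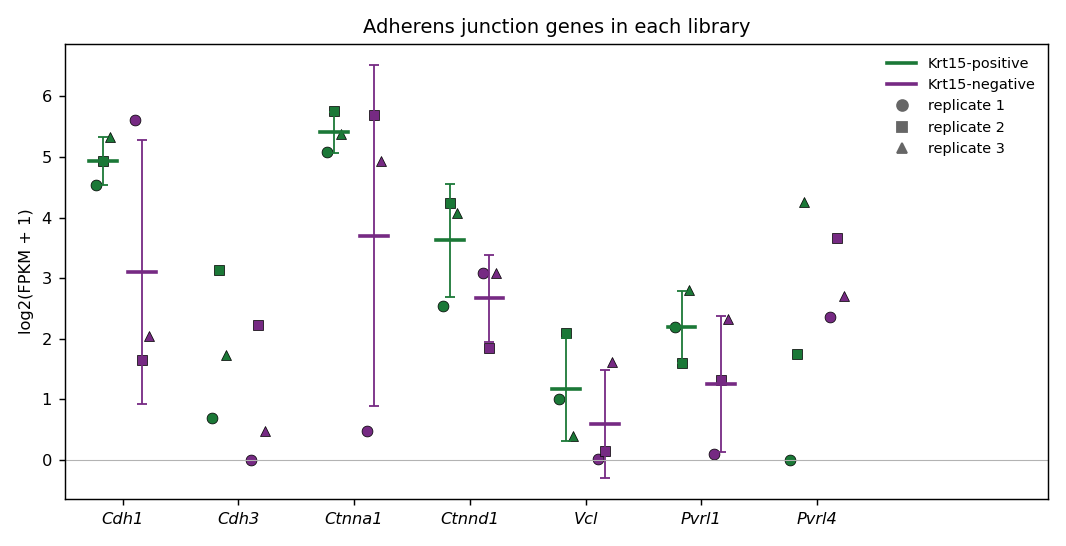
Level of each of the 7 genes in each library, as log2(FPKM + 1) on the vertical axis, with Krt15-positive libraries in green left of Krt15-negative ones in purple, symbols for replicates, and the mean and SD (n = 3) as a bar and whiskers, left out for Cdh3 and Pvrl4, which were listed at 0 in a library. Cdh1 and Ctnna1 were tight in the Krt15-positive libraries and spread in the Krt15-negative ones, with Krt15-negative replicate 1 at the top for Cdh1 and at the bottom for Ctnna1.

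By median over the 6 libraries the order was Ctnna1 (36.7 FPKM), Cdh1 (26), Ctnnd1 (7.49), Pvrl4 (4.81), Pvrl1 (2.80), Cdh3 (1.47) and Vcl (0.66). Neighbours in that order were not cleanly apart: Ctnna1 was above Cdh1 in 5 of 6 libraries, Cdh1 above Ctnnd1 in 4, Ctnnd1 above Pvrl4 in 4, Pvrl4 above Pvrl1 in 5, Pvrl1 above Cdh3 in 4 and Cdh3 above Vcl in 3. The 7 genes did not vary as a block. Krt15-positive replicate 2 held the highest value of 4 members and Krt15-positive replicate 3 of 2. Krt15-negative replicate 1 held the lowest value of 4 members and the highest of 1, and it was the lowest library for 42.3% of all genes tested. Of the 7 members, 5, 7 and 6 reached 1 FPKM in Krt15-positive replicates 1 to 3, and 3, 6 and 6 in Krt15-negative replicates 1 to 3. Of all genes tested, 66.2% were under 1 FPKM in Krt15-negative replicate 1. Across the 6 libraries, which share the difference in genes detected, Pearson's r of log2 values was 0.76 for Ctnna1 with Pvrl1, 0.69 for Ctnna1 with Cdh3, 0.64 for Cdh1 with Ctnnd1 and -0.43 for Cdh1 with Ctnna1.

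Between the groups, 6 of the 7 members had a difference above 0, beside 68.6% of the 9423 genes tested, and their median difference of 0.95 stood beside 0.63 over all genes. No member passed limma's test over all genes (0 of 7 at an adjusted p below 0.05, beside 0% of genes tested). In this main fit no member had an unadjusted limma p below 0.05, beside 3.18% of genes on the higher side and 0.743% on the lower side. The smallest adjusted p among all genes was 0.40. No member had its 3 Krt15-positive libraries all above its 3 Krt15-negative ones, which 8.85% of genes had, or all below, which 2.44% had. The 95% intervals were wide, reaching on the log2 scale from -0.89 to 4.55 for Cdh1 and from -3.75 to 1.94 for Pvrl4, and therefore do not show that the groups were alike. The median of all genes was itself moved by Krt15-negative replicate 1. It was 0.02 without that library and 0.04 with quantile normalization, and the median of the members was then 0.37 and 0.019.

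**Figure D2:**
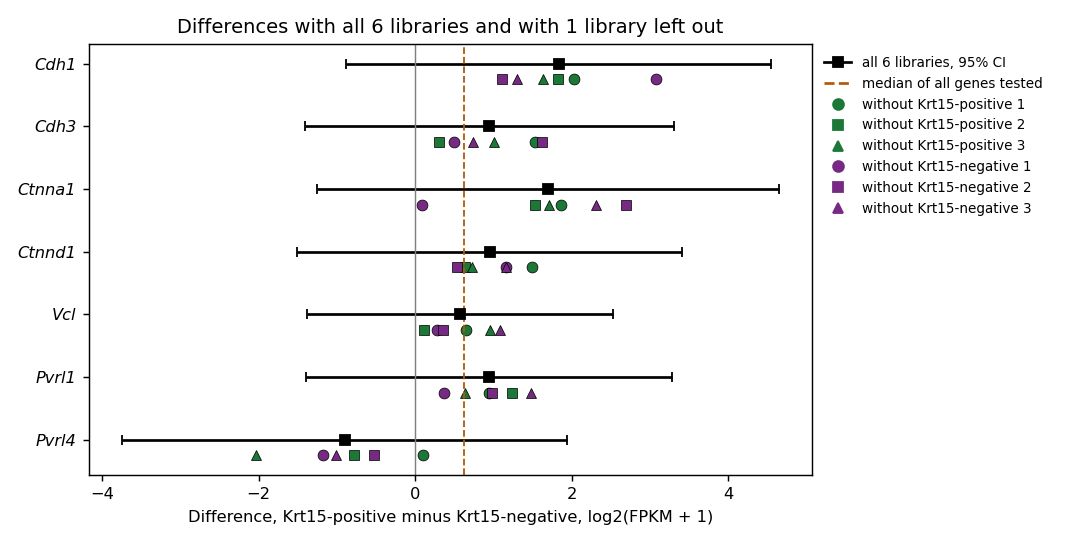
Difference of each gene, Krt15-positive minus Krt15-negative, in log2(FPKM + 1) on the horizontal axis, as a black square with its 95% confidence interval, with coloured symbols below it for the estimate without 1 library and a dashed line at the median of all genes tested. All 7 intervals span 0, and leaving out Krt15-negative replicate 1 moved Cdh1 to 3.08 and Ctnna1 to 0.09.

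Ratios within a library do not depend on how that library was scaled, apart from the pseudocount, and 5 were compared by an exact 2-sided permutation test with Benjamini-Hochberg adjustment over the 5. With 3 libraries against 3 the exact p cannot go below 0.10. No ratio could therefore have passed, and the test cannot decide whether the ratios differed between groups. The groups overlapped for each of the 5, and the adjusted exact p was 0.88 to 0.90. The log2 ratio of Cdh3 to Cdh1 was -3.86, -1.80 and -3.59 in the Krt15-positive libraries and -5.60, 0.58 and -1.57 in the Krt15-negative ones. The ratio of Pvrl4 to Pvrl1, the 2 nectins, was -2.19, 0.14 and 1.46 against 2.25, 2.34 and 0.37 on the log2 scale, a difference of -1.85 (exact permutation p = 0.20, adjusted 0.88). It was -0.85 without Krt15-positive replicate 1, -0.68 with a pseudocount of 5 and -3.77 with one of 0.1. The ratio of Ctnnd1 to Ctnna1 was -1.78 ± 0.66 in the Krt15-positive libraries and -1.03 ± 3.30 in the Krt15-negative ones (SD, n = 3 each), and that of Vcl to Ctnna1 was -4.24 ± 0.67 and -3.11 ± 2.55. In both, Krt15-negative replicate 1, where Ctnna1 was near 0, had the highest value of the 6 libraries (2.60 and -0.47) and Krt15-negative replicate 2 the lowest (-3.85 and -5.55). Jup (plakoglobin) relative to Ctnnb1 (beta-catenin), which take the same place on the cadherin tail, stood at -2.59, 0.32 and -1.41 against -2.42, 0.82 and -0.77.

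**Figure D3:**
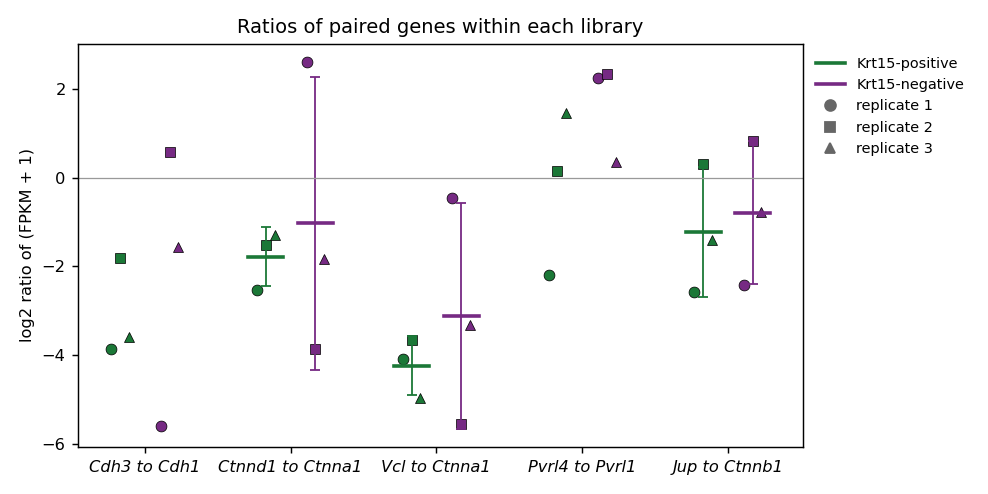
The 5 within-library ratios, as the log2 ratio of FPKM + 1 on the vertical axis, with Krt15-positive libraries in green left of Krt15-negative ones in purple and the mean and SD (n = 3) as a bar and whiskers, left out for the ratios with a gene listed at 0. The groups overlapped for every ratio, and the ratio of Ctnnd1 to Ctnna1 was 2.60 in Krt15-negative replicate 1 and below 0 in the other 5 libraries.

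The partners of these genes were described from 7 lists. In the 5 lists of junction components, 36 of 58 genes were tested and none passed. Of these 36, 32 had a difference above 0, beside 68.6% of all genes (median 0.98, beside 0.63 over all genes). The count above 0 was 24 without the Krt15-negative replicate 1 library, where the median of all genes was 0.02. The share of 68.6% also stands beside the counts above 0 of each single list that follows. Of the other cadherins, 1 of 7 was tested. That was Cdh13 (T-cadherin, which lacks a cytoplasmic tail) at 10.1, 34.9 and 7.06 FPKM against 0, 13.8 and 13.1 FPKM. Cdh11 and Cdh4 did not exceed 1.35 and 0.70 FPKM in any library. The N-cadherin gene Cdh2 and the endothelial Cdh5, named after their values were seen, were listed at 0 in all 6.

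Of the other catenins, 4 of 8 were tested, with 3 above 0 and 1 below. Ctnnb1, which links cadherin to alpha-catenin, stood at 40.9, 68.5 and 53 FPKM in the Krt15-positive libraries, compared with 88.3, 22.1 and 13.6 FPKM in the Krt15-negative ones, a difference of 0.79 (SE 0.97, limma adjusted p = 0.83). As with Cdh1, the highest Ctnnb1 value was in Krt15-negative replicate 1, and the other 2 Krt15-negative libraries were below all Krt15-positive ones. Jup stood at 5.98, 85.5 and 19.4 FPKM against 15.7, 39.9 and 7.58 FPKM. Ctnnal1, an alpha-catenin relative, stood at 3.05, 16 and 12.3 FPKM against 0, 0 and 3.52 FPKM, a difference of 2.55 (SE 1.17, limma adjusted p = 0.79).

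Of the nectin partners, 4 of 9 were tested and all 4 lay above 0. Mllt4 (afadin, which joins nectins to actin) stood at 16.9, 4.18 and 36.5 FPKM against 12.8, 6.45 and 10.1 FPKM. Pvrl2 (nectin-2) was at 5.15, 15.3 and 5.78 FPKM against 0.018, 38.9 and 10.5 FPKM, and Cadm1, a nectin-like molecule, at 21.4, 11.9 and 6.59 FPKM against 0, 15.2 and 10.5 FPKM. Each of these groups overlapped. Of the actin linkers, 10 of 14 were tested, with 9 above 0. The most abundant were Actn4 (alpha-actinin-4, an actin crosslinker; difference 1.83, SE 1.28), Zyx (zyxin; 0.36, SE 1.03) and Vasp (an actin elongation factor; 0.31, SE 1.04), and none passed. Of the junction regulators, 17 of 20 were tested, with 15 above 0. The small GTPase genes Cdc42, Rac1 and Rhoa led them, with differences of 0.22, -0.18 and 1.56. Rhoa stood at 43.5, 93 and 94 FPKM against 0.30, 143 and 82.2 FPKM, another abundant gene that was near 0 in Krt15-negative replicate 1. Across these lists the groups did not overlap for 4 of 36 genes, all higher in Krt15-positive libraries, beside 8.85% of all genes. They were Limd1, Ptprf, Pard3 and Tjp1, named after their values were seen, with differences of 1.80, 2.02, 1.84 and 0.96 (limma adjusted p = 0.79 for each).

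Regulators of Cdh1 were considered last. Of the repressors, 2 of 6 were tested. Snai2, which represses Cdh1 and is also normal to basal keratinocytes, was the abundant one, at 58.2, 75.5 and 24.1 FPKM in the Krt15-positive libraries, compared with 4.86, 105 and 45 FPKM in the Krt15-negative ones (difference 0.66, SE 1.16, limma adjusted p = 0.89). Snai2 was thus lowest in the library with the highest Cdh1 value and highest in the library with the lowest. The former, Krt15-negative replicate 1, was the lowest library for 42.3% of all genes tested. The other 4 libraries showed no steady order. There, Cdh1 values of 39.2, 29.7, 22.3 and 3.14 FPKM went with Snai2 values of 24.1, 75.5, 58.2 and 45 FPKM. A link between the 2 genes was not tested. Twist2 was listed at 0 in 4 libraries, at 0.029 FPKM in Krt15-positive replicate 1 and at 7.27 FPKM in Krt15-negative replicate 3, the library with the most fibroblast marker signal, whose part in that value was not tested. Twist1 reached 2.57 FPKM in Krt15-positive replicate 2 and 1.56 FPKM in Krt15-negative replicate 3. Zeb1, named after its values were seen, was listed at 0 in the Krt15-positive libraries and in Krt15-negative replicate 1. It stood at 0.44 and 3.13 FPKM in Krt15-negative replicates 2 and 3, the libraries with the lowest Cdh1. A link of Zeb1 to Cdh1 was not tested. Snai1 was listed at 0 in all 6 libraries, and Zeb2 did not exceed 0.013 FPKM. Of the factors of epithelial identity, 10 of 10 were tested and all 10 lay above 0, beside 68.6% of all genes. Their median was 1.42, beside 0.63 over all genes, and none passed the test. The most abundant were Klf5 at 217, 361 and 303 FPKM against 30.8, 232 and 164 FPKM, Klf4 with a difference of 0.41 (SE 0.99) and Elf3 with 0.21 (SE 0.95). For 2 of the 10, Ovol2 and Esrp1, all Krt15-positive libraries lay above all Krt15-negative ones, beside 8.85% of all genes. Ovol2, named after its values were seen, stood at 14.8, 15.6 and 26.7 FPKM against 0.092, 0 and 0.045 FPKM (difference 4.21, SE 1.04, limma adjusted p = 0.79). Esrp1, named likewise, stood at 14.2, 13 and 45.6 FPKM against 2.92, 4.54 and 12.2 FPKM.

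**Figure D4:**
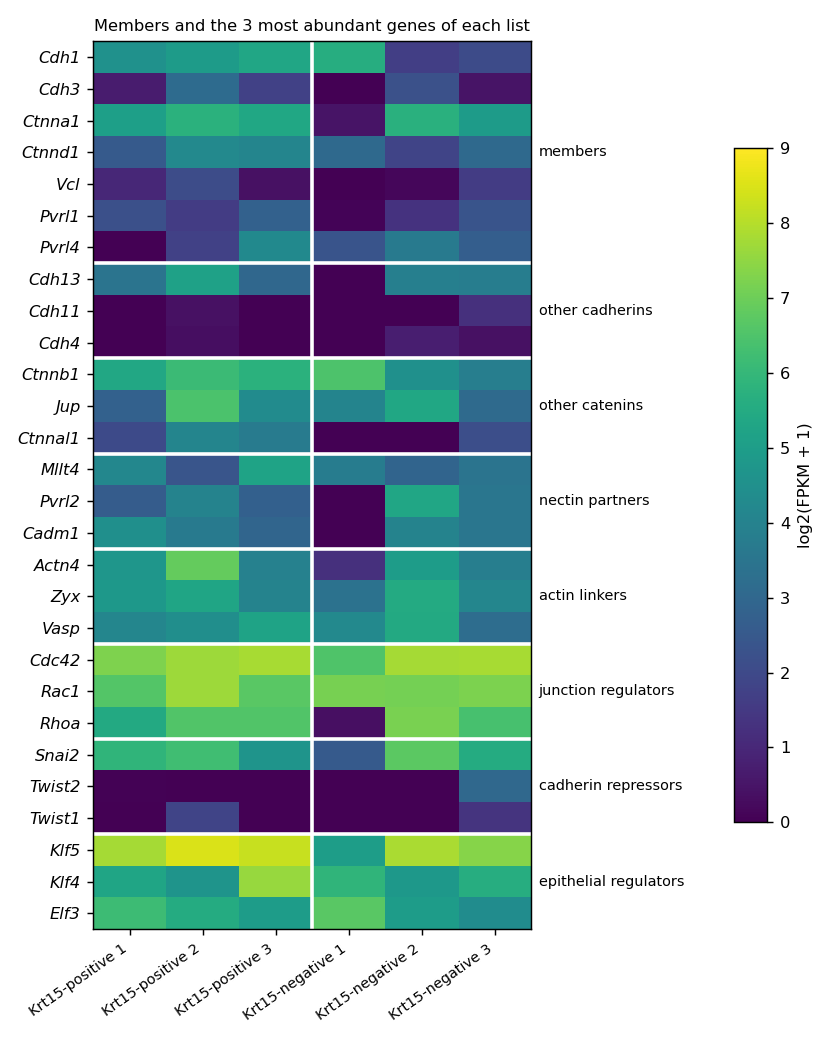
Levels of the 7 members and of the 3 most abundant genes of each list in each library, coloured by log2(FPKM + 1), with Krt15-positive libraries left of the white line and Krt15-negative ones right of it. Krt15-negative replicate 1 combines high Cdh1 and Ctnnb1 (47.5 and 88.3 FPKM) with Ctnna1 at 0.39 FPKM and Rhoa, Pvrl2 and Cdh13 at 0.30 FPKM or less.

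Among 4185 other genes averaging 10 FPKM or more, the 5 whose log2 values across the 6 libraries were most like the members' mean were Ap1ar (Pearson's r 0.996), Nckap1 (0.97), Copa (0.97), Hibch (0.96) and Usp4 (0.96). Ap1ar encodes a regulator of the AP-1 adaptor complex, Nckap1 a subunit of the actin-nucleating WAVE complex, and Copa a coatomer subunit. These values rest on 6 libraries, and 39 of the 4185 genes exceeded 0.90. Ap1ar stood at 3.55, 27.5 and 33 FPKM in the Krt15-positive libraries, compared with 0.91, 5.86 and 5.98 FPKM in the Krt15-negative ones, following the members' mean, which was 2.29, 3.36 and 3.43 against 1.66, 2.37 and 2.46 on the log2(FPKM + 1) scale.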

How the data were processed

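RNA of 6 libraries was measured, 3 per group. The SMART-Seq v4 kit turned sorted cells into cDNA without RNA extraction, per the labels' protocols. The deposited table holds FPKM, normalized by the authors to transcript length and mapped fragments. The tools named are STAR 2.5, DESeq2 and Cufflinks 2.2.1, with build mm9, per the submitters' processing notes, which assign them no role. The gene annotation is not given in the sources used here.

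Of 24043 rows, 27 with symbols turned into dates were left out. Depth was estimated as the inverse of the lowest common value of FPKM times length in kilobases over 2172 genes with a single transcript of at least 1500 bp. Transcript lengths came from GENCODE M21 (GRCm38), so fragment numbers are approximate. Values were analysed as log2(FPKM + 1), which understates changes of low genes. The 9423 genes averaging 1 FPKM or more entered a limma fit (version 3.58.1, R 4.3.3) with trended variance, group as the only term and Benjamini-Hochberg adjustment, and called below 0.05. In simulated data the test recovered 5 of 100 genes changed by 3 on the log2 scale and 61 of 100 changed by 6. It called 0 unchanged genes. A gene that did not pass may therefore still differ. Members and lists were chosen with earlier results of these data known. The genes named are the members, Krt15, Itgb1, the 3 most abundant of each list and the 5 most like the members' mean. Marker genes, genes that overlap members, Cdh2, Cdh5, Limd1, Ptprf, Pard3, Tjp1 and the Fat and Celsr genes were named outside that rule, after their values were seen. So were Snai1, Zeb1, Zeb2, Ovol2 and Esrp1. Of 166 list symbols, 2 were matched by synonym. Alternatives were other pseudocounts, filters and scalings, library weights, a replicate block and leaving out libraries. Promoter sequences are from RefSeq (GRCm38.p6), matched by symbol for 3 of the 7 members.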

Additional observations from a re-analysis of the deposited data

How the results depend on the processing

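No member passed under any of the alternatives run. The unadjusted limma p of Cdh1 was 0.0040 without Krt15-negative replicate 1, 0.0045 with library weights and 0.016 without both replicate 1 libraries. That of Vcl was 0.049 without both replicate 3 libraries. The other unadjusted p-values of members were above 0.05. Over 121 alternative values of the 7 differences, 116 kept their direction and the adjusted p was 0.38 to 1. Some of the 116 could not turn, since other filters and the replicate block leave the difference itself unchanged. Fits without a library also share most of their libraries with the main fit. The 5 that turned were those of Vcl (-0.73 with quantile normalization, -0.063 with library weights, -0.11 without both replicate 2 libraries), Pvrl1 (-0.60 with quantile normalization) and Pvrl4 (0.10 without Krt15-positive replicate 1). The count of genes called was 0 in each setting but library weights, which called 8, none a member. Unadjusted limma p-values below 0.05 gave 300 higher and 70 lower genes, 121 and 178 with quantile normalization, and 168 and 149 without Krt15-negative replicate 1. Of the junction lists, 17 of 18 genes lay above 0 with a filter of 10 FPKM, which left 2 members, Cdh1 and Ctnna1. Leaving out 1 library moved the difference of Cdh1 between 1.11 and 3.08, Cdh3 between 0.31 and 1.62, Ctnna1 between 0.09 and 2.70, Ctnnd1 between 0.54 and 1.49, Pvrl1 between 0.37 and 1.48, Pvrl4 between -2.03 and 0.10 and Vcl between 0.11 and 1.09. The differences of the ratios turned for Cdh3 to Cdh1 without Krt15-negative replicate 2 (0.51), for Ctnnd1 to Ctnna1 when Krt15-negative replicate 1 (1.07) or both replicate 1 libraries were left out (1.44), for Vcl to Ctnna1 likewise (0.19 and 0.11), and for Jup to Ctnnb1 without Krt15-positive replicate 1 (0.24) and without Krt15-negative replicate 2 (0.37). Their ranges without 1 library were -2.58 to 0.51, -2.16 to 1.07, -2.35 to 0.19 and -1.25 to 0.37. For these changes the cause was not tested.

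Same-numbered libraries of the groups share a replicate number and a sample identifier in the labels, which do not say what either stands for. Their deviations correlated at 0.13, 0.17 and 0.0089 for numbers 1 to 3, so they were not treated as pairs. Numbers 1 and 2 correlated best with their own number and number 3 did not, a hint from the data and not from the design. With a replicate block, 0 genes were called, with 337 higher and 142 lower at an unadjusted limma p below 0.05, and the members' adjusted p was 0.74 to 0.86. Values that rest on a few fragments, such as that of Vcl in Krt15-negative replicate 1, are imprecise. Krt15-positive replicate 1 held about 145 fragments of Vcl. The 2 libraries had an estimated 27.6 M fragments in all against 29 M, and 8466 genes at 1 FPKM or more against 3247. The cause of such low values was not tested.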

Other observations

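In the wider cadherin superfamily few genes were detected. Of 23 numbered cadherin genes, 3 had a mean of at least 1 FPKM (Cdh1, Cdh3 and Cdh13) and 15 were listed at 0 in all 6 libraries. None of 71 protocadherin genes and none of 4 cadherin-related genes reached that mean. Among 8 genes of the Fat, Dchs and Celsr families, which act in planar polarity and growth control, 4 did. They were chosen by that mean and not for a difference. Celsr1 stood at 1.62, 1.67 and 0.68 FPKM in the Krt15-positive libraries, compared with 0.036, 3.06 and 0.43 FPKM in the Krt15-negative ones, and Celsr2 at 2.49, 0.33 and 9.85 FPKM against 1.08, 2.47 and 3.16 FPKM. Fat1 stood at 2.58, 0.72 and 0.45 FPKM against 2.37, 0.67 and 1.07 FPKM, and Fat2 at 2.68, 0.87 and 1.01 FPKM against 0.0069, 1.38 and 2.00 FPKM. None of the 4 passed the test.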
